A study of Mus musculus with 6 samples.

Results

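The collagens are the genes whose symbol reads Col, a number, the letter a and a number, and 44 of them were measured among 19938 named mouse genes on 6 Affymetrix arrays. They were chosen by symbol alone, and all 44 genes with such a symbol in the RefSeq gene table had a probe set on the array. Each array held RNA from keratinocytes, the cells that build the epidermis, of C57BL/6 embryos at E18.5, pooled from 2 mice and cultured for 2 to 5 days without calcium. Each of the 3 groups had 2 arrays, which the labels call biological replicates. Control mice were Ovol2flox/+; Ovol1+/- or Ovol2flox/+;K14-Cre, the mice labelled Ovol1 KO were Ovol1-/-, and the Ovol1/2 DKO mice were Ovol2flox/-;K14-Cre; Ovol1-/-. Ovol1 and Ovol2 encode related zinc finger transcription factors of epithelia. Ovol1-/- mice lack Ovol1 in every cell. The Ovol1/2 DKO mice also carry a null allele of Ovol2, and their K14-Cre transgene deletes the floxed allele only in cells that use the keratin 14 promoter, so other cells in a culture would keep it. The labels imply 3 comparisons, of both mutant groups with control and of the mutants with one another.

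Collagens are extracellular proteins in which 3 chains wind into a triple helix. Fibrillar collagens build the cables of the dermis, type IV collagen forms the sheet-like basement membrane under the epidermis, and type VII collagen anchors that sheet to the dermis. Type XVII collagen spans the keratinocyte membrane in hemidesmosomes, the rivets that hold basal keratinocytes to the basement membrane. Fibroblasts make most fibrillar collagen of skin, while keratinocytes themselves make types IV, VII and XVII. Chains must be hydroxylated, folded, trimmed and cross-linked by dedicated enzymes before they can serve in a matrix.

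Values are given as log2(intensity + 16), on which a step of 1 is a doubling of intensity plus 16, so that changes of dim genes are understated. Levels of different genes cannot be ranked, because each probe set has its own response. A level of 6.20, the highest of the 6 array medians of probe sets with no gene symbol, is called near background here, and 2 of the 44 collagens had a mean at or below it. Differences were tested with limma over all genes, and a gene passed at a Benjamini-Hochberg adjusted p under 0.05. Ovol1 read 9.64 and 9.95 on the control arrays, 10.75 and 9.80 on the arrays labelled Ovol1 KO, and 5.96 and 6.22 on the Ovol1/2 DKO arrays. The Ovol1 signal thus goes against the label of the arrays called Ovol1 KO. Both mutant groups are Ovol1-/- by their labels, yet the same Ovol1 probe set was low only on the Ovol1/2 DKO arrays. Where its probes lie in the gene is not known, and the reason for this difference between the mutant groups was not tested. Ovol2 read 8.37 and 6.97 in control, 7.88 and 8.38 under the Ovol1 KO label and 7.63 and 7.50 in the Ovol1/2 DKO. Whether the Ovol2 probes lie in the deleted part is not known. All 6 arrays are labelled female, yet Xist read 4.43 on control replicate 1 and 4.54 on replicate 1 labelled Ovol1 KO, against 10.99 to 11.43 on the other 4 arrays. Eif2s3y, a gene of the Y chromosome, read 13.80 on that replicate 1 labelled Ovol1 KO and 4.80 to 5.14 on the other 5 arrays, control replicate 1 among them. Values without the 2 arrays that lacked Xist signal are given as differences, since 1 control array and 1 labelled Ovol1 KO array are then left and the spread comes from the Ovol1/2 DKO pair alone. Krt5 and Krt14, keratins of basal keratinocytes, read 13.21 to 13.55 on all 6 arrays. Of 10 keratinocyte markers 1 passed between the Ovol1/2 DKO and control, Cdh1, which fell by 1.57. In all, 4 of the 10 were at an unadjusted limma p under 0.05. Besides Cdh1 these were Krt15, Trp63 and Krt6a, which differed by 1.74, 0.93 and -0.72. By the same limma test against control, none of the endothelial, leukocyte, melanocyte, skeletal muscle and adipocyte markers (8 each) passed. In that order, 2, 0, 3, 0 and 1 were at an unadjusted p under 0.05, and 1 of 6 Schwann cell markers fell (Erbb3). The 2 endothelial markers were Pecam1 and Kdr, which differed in opposite directions, by 0.84 and -1.15. Over the 6 Schwann cell markers, 2 differences were positive and 4 negative, with a median of -0.21. Over all genes, 2.02% passed in this comparison and 2071 of 19938 were at an unadjusted p under 0.05. Against the arrays labelled Ovol1 KO, Cdh1 and Erbb3 fell as well, where 1.91% of all genes fell. The endothelial marker Pecam1 and the keratinocyte marker Trp63 rose 2.43-fold and 2.14-fold (limma adjusted p 0.0204 and 0.0465), where 1.24% of all genes rose. No other marker of these 7 groups passed there. Of the 8 endothelial markers, 4 were higher and 4 lower in that comparison, with a median difference of -0.02. The Trp63 call was lost without any 1 of the 6 arrays, and that of Pecam1 without replicate 1 labelled Ovol1 KO or either Ovol1/2 DKO array.

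A single collagen, Col5a2, rose against control in the Ovol1/2 DKO, none fell, and 43 of 44 did not pass the test, against 2.02% of all genes that passed (0.622% higher and 1.4% lower). The median difference over the 44 collagens was 0.10, beside 0.03 over all 19938 genes. Of the collagen differences 33 were positive and 11 negative, and of those of all genes 11090 were positive. The differences ran from -0.46 for Col6a6, a chain of type VI collagen, to 2.29 for Col5a2. Both Ovol1/2 DKO arrays lay above both control arrays for 9 collagens and below both for 4, where 21.1% and 18.1% of all genes did so. The 95% confidence interval of the difference stayed within a 2-fold change in either direction for 26 collagens and within 4-fold for 43. For the rest, Col5a2 aside, the interval included a 2-fold change in at least one direction. In bulk RNA of this kind, fewer cells of a type and less RNA per cell cannot be told apart.

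**Figure D1:**
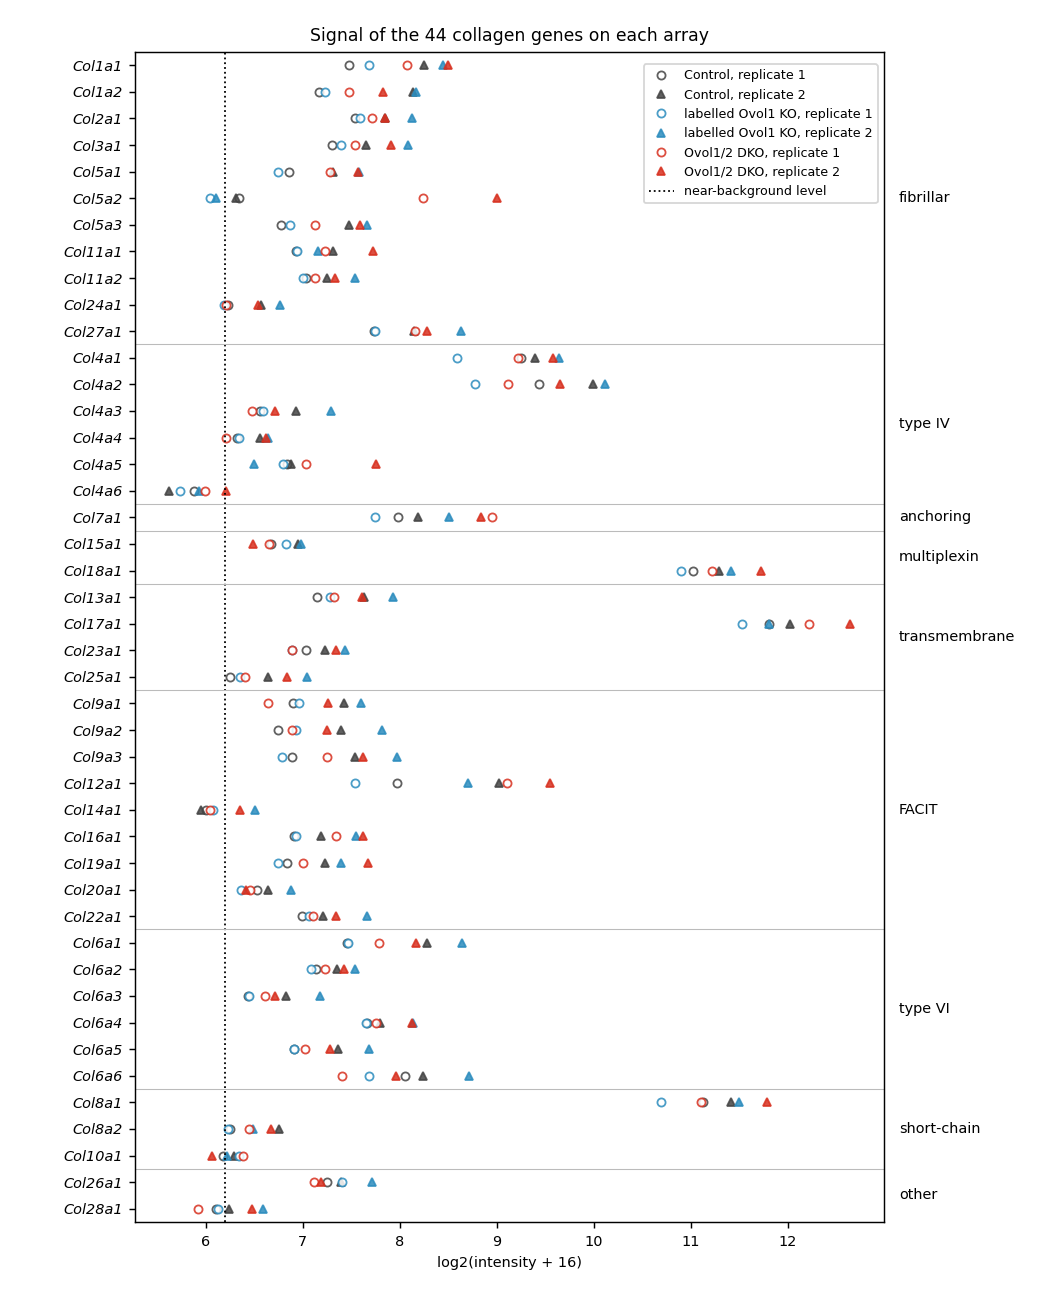
Signal of each of the 44 collagen genes on the 6 arrays, as log2(intensity + 16) on the horizontal axis, grouped by class, with open circles for replicate 1 and triangles for replicate 2. Col5a2 is the gene whose Ovol1/2 DKO arrays (8.24 and 9.00) stand far to the right of the other 4 arrays (6.05 to 6.34), and for most other genes the triangles lie to the right of the circles of the same colour.

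The 11 fibrillar collagens include the chains of types I, III and V that are co-assembled in skin fibrils. Col5a2 encodes the alpha 2 chain of type V collagen, which sits in the core of type I fibrils and limits their width. It read 6.34 and 6.31 on the control arrays, 6.05 and 6.11 on the arrays labelled Ovol1 KO, and 8.24 and 9.00 on the Ovol1/2 DKO arrays. The first 4 arrays lay close to the near-background level, and both Ovol1/2 DKO arrays lay well above all of them. The difference from control was 2.29 ± 0.28 (SE, n = 2 arrays against 2), a 4.89-fold change, with a 95% interval of 1.63 to 2.95 and a limma adjusted p of 0.0159. Col5a2 ranked 122 by p among all genes. Against the arrays labelled Ovol1 KO it was 2.54 higher, with a limma adjusted p of 0.00921. Those 2 arrays lay under the near-background level, and with them set to that level the change was 5.36-fold. That value is a point estimate and no lower bound, since it leaves out the spread of the arrays. The 95% interval of the difference of 2.54 was 1.88 to 3.21.

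The Col5a2 call against control depended on the arrays and settings used. It was lost without control replicate 2 (2.28, limma adjusted p 0.0647) and without Ovol1/2 DKO replicate 2 (1.91, limma adjusted p 0.0670). The same held with an offset of 64 (1.79) and when the model was fitted to all 35556 probe sets, with limma adjusted p of 0.0574 and 0.0666. Without replicate 1 labelled Ovol1 KO, the difference from that group was 2.51 and its limma adjusted p 0.0603. Without the 2 arrays that lacked Xist signal, the difference from control was 2.30, and no test of it is given. Its direction was the same in all 18 alternatives. Of the 17 alternatives other than that one, it passed in 13 against control and in 16 against the labelled Ovol1 KO arrays. Where 1 array of a group was left out, the remaining one was assumed to vary like the other groups.

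Col5a1 encodes the alpha 1 chain with which the alpha 2 chain is assembled. It read 6.86 and 7.31 in control, 6.75 and 7.58 under the Ovol1 KO label, and 7.28 and 7.57 in the Ovol1/2 DKO. The groups overlapped, and the Ovol1/2 DKO difference of 0.34 had an interval of -0.44 to 1.13. Col5a3, the third type V chain, differed by 0.23 (SE 0.36). Col1a1, the main chain of type I collagen, read 7.48 and 8.25 in control, 7.68 and 8.44 under the Ovol1 KO label, and 8.07 and 8.50 in the Ovol1/2 DKO. The second control array lay above the first Ovol1/2 DKO array. Its difference of 0.42 (SE 0.37) did not pass, with a limma adjusted p of 0.958 and an interval of -0.46 to 1.30. Col1a2, its partner chain, read 7.16 and 8.14 in control, 7.23 and 8.16 under the Ovol1 KO label, and 7.48 and 7.82 in the Ovol1/2 DKO. Both Ovol1/2 DKO arrays lay between the control arrays, so the group means were equal to 2 decimals (difference 0.00, interval -1.01 to 1.01).

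Col3a1, the type III chain of young and healing dermis, neighbours Col5a2 on chromosome 1 with no other protein-coding gene between them in RefSeq. It read 7.30 and 7.65 in control, 7.39 and 8.09 under the Ovol1 KO label, and 7.54 and 7.91 in the Ovol1/2 DKO. All 3 groups overlapped, and the Ovol1/2 DKO difference was 0.25 (interval -0.46 to 0.96) beside 2.29 for the neighbouring Col5a2. The other fibrillar genes are mainly known from cartilage, such as Col2a1 and Col11a1, or are little studied, such as Col24a1 and Col27a1. Their Ovol1/2 DKO differences ran from -0.02 for Col24a1 to 0.36 for Col11a1. Over the 11 fibrillar genes, 10 differences were positive and 1 negative, where 11090 of 19938 were positive over all genes, and the median was 0.25. For the arrays labelled Ovol1 KO, fibrillar differences from control ran from -0.25 for Col5a2 to 0.26 for Col3a1, and none passed.

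**Figure D2:**
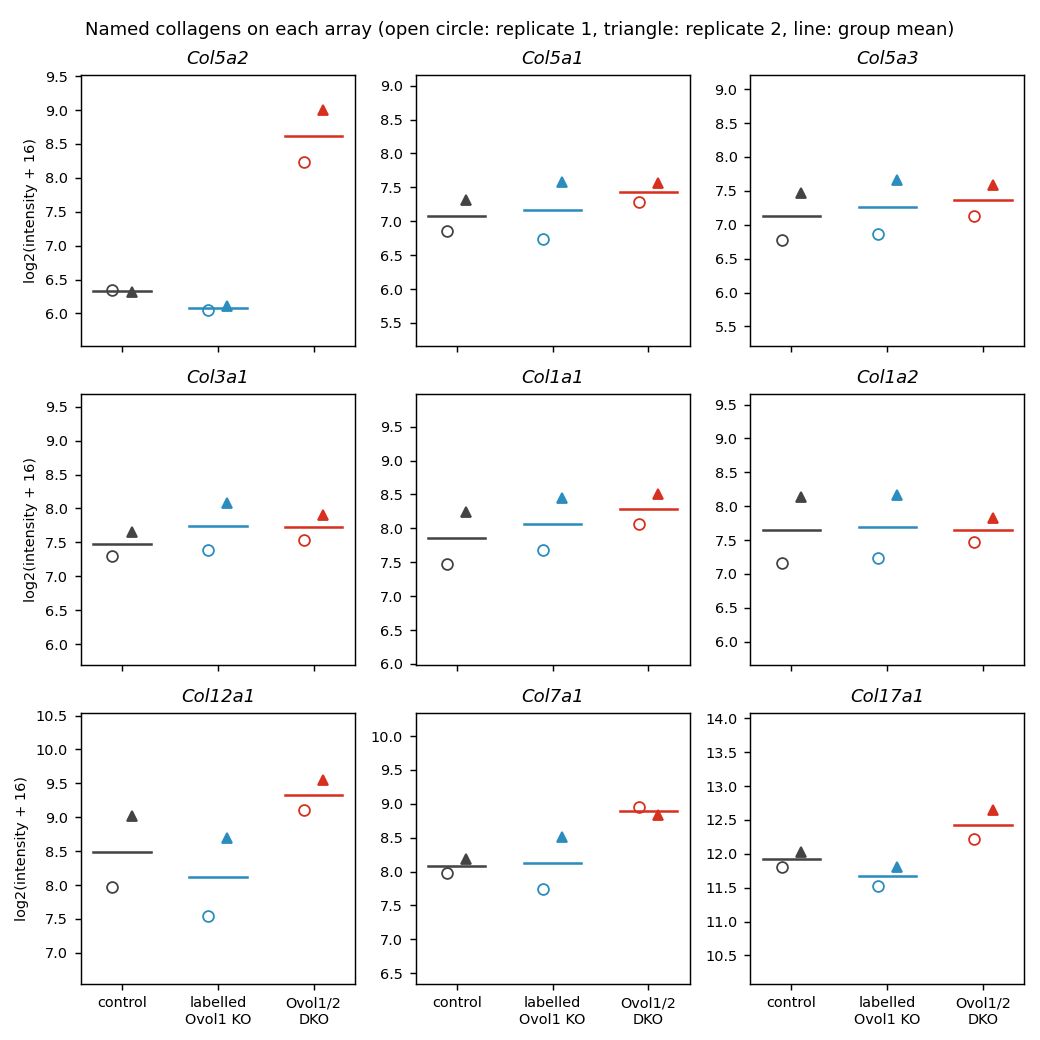
Signal of 9 collagens on each array as log2(intensity + 16), by group, with an open circle for replicate 1, a triangle for replicate 2 and a line at the group mean; every panel spans the same number of log2 units. Col5a2 separates the Ovol1/2 DKO from the other groups (means of 6.33, 6.08 and 8.62 from left to right), whereas for Col5a1, Col5a3, Col3a1, Col1a1 and Col1a2 the groups overlap.

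Type IV collagen is the network former of the basement membrane, and alpha 1 and alpha 2 chains, from Col4a1 and Col4a2, build its common form. Both genes lie head to head on chromosome 8 and are read in opposite directions from a shared control region. Their RefSeq promoter windows on GRCm38.p6, from 250 bases before to 50 bases after each start, are chr8:11312777-11313076 on the minus strand and chr8:11312555-11312854 on the plus strand, and they overlap by 78 bases. They are shown because the pair shares this region and its signals were lowest and highest on the same arrays. The windows of Col7a1 (chr9:108953336-108953635, plus strand) and Col17a1 (chr19:47691993-47692292, minus strand) are shown with them as the 2 anchoring collagens of keratinocytes described next. Capitals mark CCAAT, or ATTGG where it lies on the other strand, the letters of the CCAAT box of many promoters.
Col4a1: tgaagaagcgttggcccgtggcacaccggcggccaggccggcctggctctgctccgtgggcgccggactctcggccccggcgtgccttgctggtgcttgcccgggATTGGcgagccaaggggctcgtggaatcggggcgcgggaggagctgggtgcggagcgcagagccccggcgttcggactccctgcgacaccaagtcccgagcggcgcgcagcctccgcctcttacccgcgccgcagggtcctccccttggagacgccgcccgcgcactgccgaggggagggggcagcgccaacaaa
Col4a2: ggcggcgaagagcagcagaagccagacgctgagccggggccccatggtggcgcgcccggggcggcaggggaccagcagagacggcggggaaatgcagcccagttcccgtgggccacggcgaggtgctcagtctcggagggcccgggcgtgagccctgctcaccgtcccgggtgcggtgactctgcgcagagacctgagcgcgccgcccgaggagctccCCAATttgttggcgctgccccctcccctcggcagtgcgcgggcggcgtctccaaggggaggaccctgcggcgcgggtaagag
Col7a1: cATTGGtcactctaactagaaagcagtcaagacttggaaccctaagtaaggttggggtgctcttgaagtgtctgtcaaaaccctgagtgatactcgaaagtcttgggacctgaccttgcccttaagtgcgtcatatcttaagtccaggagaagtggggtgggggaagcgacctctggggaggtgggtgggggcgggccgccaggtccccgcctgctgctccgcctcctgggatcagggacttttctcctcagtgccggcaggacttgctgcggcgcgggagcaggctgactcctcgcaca
Col17a1: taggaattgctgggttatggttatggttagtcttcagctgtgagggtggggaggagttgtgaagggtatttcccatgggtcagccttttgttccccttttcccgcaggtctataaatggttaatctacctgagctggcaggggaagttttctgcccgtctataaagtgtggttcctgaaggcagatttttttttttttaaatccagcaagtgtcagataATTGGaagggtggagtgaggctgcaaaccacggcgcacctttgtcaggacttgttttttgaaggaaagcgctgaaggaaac
Each of the 4 windows held 1 CCAAT match, and the Col4a1 and Col4a2 windows were 74.0% and 73.7% G and C, against 58.7% for Col7a1 and 46.3% for Col17a1. RefSeq windows were given for 35 of the 44 collagens, 38 windows of 300 bases in all. CCAAT was found on either strand in 34.2% of the collagen windows and in 37.4% of all 32851 windows. CCGTTA, a core bound by Ovol factors, was found in 2.63% of collagen windows (1 window, of Col10a1) and in 2.76% of all. CACCTG, an E-box letter string bound by Zeb factors, was found in 13.2% of collagen windows and 20.2% of all. These matches describe letters in these windows and not sites that are bound.

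Col4a1 read 9.25 and 9.39 in control, 8.59 and 9.64 under the Ovol1 KO label, and 9.21 and 9.58 in the Ovol1/2 DKO. Col4a2 read 9.43 and 10.00 in control, 8.77 and 10.12 under the Ovol1 KO label, and 9.12 and 9.65 in the Ovol1/2 DKO. For both genes the 2 arrays labelled Ovol1 KO were the lowest and the highest of the 6, and the spread inside that group covered every other array. The Ovol1/2 DKO differences were 0.07 for Col4a1 (interval -0.78 to 0.93) and -0.33 for Col4a2 (interval -1.43 to 0.78), and neither passed. Col4a3 and Col4a4, which with Col4a5 build the network of the kidney filter, differed by -0.15 and -0.03.

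Col4a5 and Col4a6 form another head-to-head pair, on the X chromosome, and their chains are also found under the epidermis. Col4a5 read 6.84 and 6.88 in control, 6.79 and 6.50 under the Ovol1 KO label, and 7.03 and 7.75 in the Ovol1/2 DKO. Both Ovol1/2 DKO arrays lay above the other 4, yet the difference of 0.53 did not pass (limma adjusted p 0.670, interval -0.13 to 1.20). Col4a6 stood at or below 6.21 on all 6 arrays, within the near-background range except at its upper end. Over the 6 type IV genes, 3 differences were positive and 3 negative, with a median of 0.02.

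Col7a1 encodes the chain of the anchoring fibrils that tie the basement membrane to the dermis. It read 7.98 and 8.19 in control, 7.74 and 8.51 under the Ovol1 KO label, and 8.95 and 8.84 in the Ovol1/2 DKO. Its Ovol1/2 DKO arrays lay above all 4 others. The difference from control was 0.81 (SE 0.28), a 1.75-fold change whose 95% interval of 0.13 to 1.49 left out 0 before any adjustment. Adjusted over all genes it did not pass (limma adjusted p 0.340), and it did not pass in any of the 18 alternatives, in which it ran from 0.71 to 0.91. Against the arrays labelled Ovol1 KO it was 0.77 higher, with a limma adjusted p of 0.284. Without the 2 arrays lacking Xist signal, these differences were 0.71 and 0.39. Col5a2 and Col7a1 were the 2 collagens with an unadjusted p under 0.05 in the comparison with control, where 2071 of 19938 genes were at that level.

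Col17a1 is one of 4 transmembrane collagens, whose chains stay in the cell surface. It read 11.81 and 12.03 in control, 11.53 and 11.81 under the Ovol1 KO label, and 12.22 and 12.64 in the Ovol1/2 DKO. The groups fell in the order labelled Ovol1 KO, control, Ovol1/2 DKO, with no overlap between the Ovol1/2 DKO and the rest. The Ovol1/2 DKO differences were 0.51 from control (interval -0.05 to 1.08, limma adjusted p 0.564) and 0.76 from the labelled Ovol1 KO arrays (limma adjusted p 0.191), and neither passed. They share the Ovol1/2 DKO arrays, and were 0.41 and 0.62 without the 2 arrays lacking Xist signal. The remaining transmembrane genes differed by 0.08 for Col13a1, -0.02 for Col23a1 and 0.17 for Col25a1, and their groups overlapped.

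Col18a1 and Col15a1 are multiplexins, basement membrane collagens that carry sugar chains and release anti-angiogenic fragments such as endostatin. Col18a1 read 11.03 and 11.29 in control, 10.90 and 11.41 under the Ovol1 KO label, and 11.21 and 11.72 in the Ovol1/2 DKO. Groups overlapped, with an Ovol1/2 DKO difference of 0.31 (interval -0.35 to 0.98). Col15a1 differed by -0.24 and did not pass, although both its Ovol1/2 DKO arrays lay below both control arrays.

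Among the 9 fibril-associated collagens, which decorate the surface of fibrils, Col12a1 met the size required for a full account. Its chain links fibrils in tissues under tension. Col12a1 read 7.97 and 9.02 in control, 7.54 and 8.70 under the Ovol1 KO label, and 9.10 and 9.55 in the Ovol1/2 DKO. Replicate 2 was higher by 1.05 in control, so the arrays of each of the other groups spread over a full doubling while the Ovol1/2 DKO arrays lay above them all. The difference was 0.83 from control (interval -0.32 to 1.98, limma adjusted p 0.747) and 1.21 from the labelled Ovol1 KO arrays (interval 0.06 to 2.36, limma adjusted p 0.327). With the replicate number as a block, the second of these passed at a limma adjusted p of 0.0436. Without the 2 arrays lacking Xist signal, the differences were 0.30 and 0.63. The other 8 fibril-associated genes ran from -0.21 for Col9a1 to 0.43 for Col16a1, and none passed.

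The 6 genes of type VI collagen, which forms beaded filaments near basement membranes, differed by -0.46 (Col6a6) to 0.21 (Col6a4) in the Ovol1/2 DKO, with a median of 0.06. Col6a5 and Col6a6 each had another probe set at 5.45 and 5.97 on average, below the near-background level. Of the short-chain collagens, which form hexagonal lattices, Col8a1 read 11.12 and 11.41 in control, 10.70 and 11.49 under the Ovol1 KO label, and 11.10 and 11.78 in the Ovol1/2 DKO. Its groups overlapped, and its difference was 0.18. Col8a2 and Col10a1, the latter a mark of cartilage that turns to bone, differed by 0.06 and -0.01. Col26a1 and Col28a1, outside the other classes, differed by -0.18 and 0.02.

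**Figure D3:**
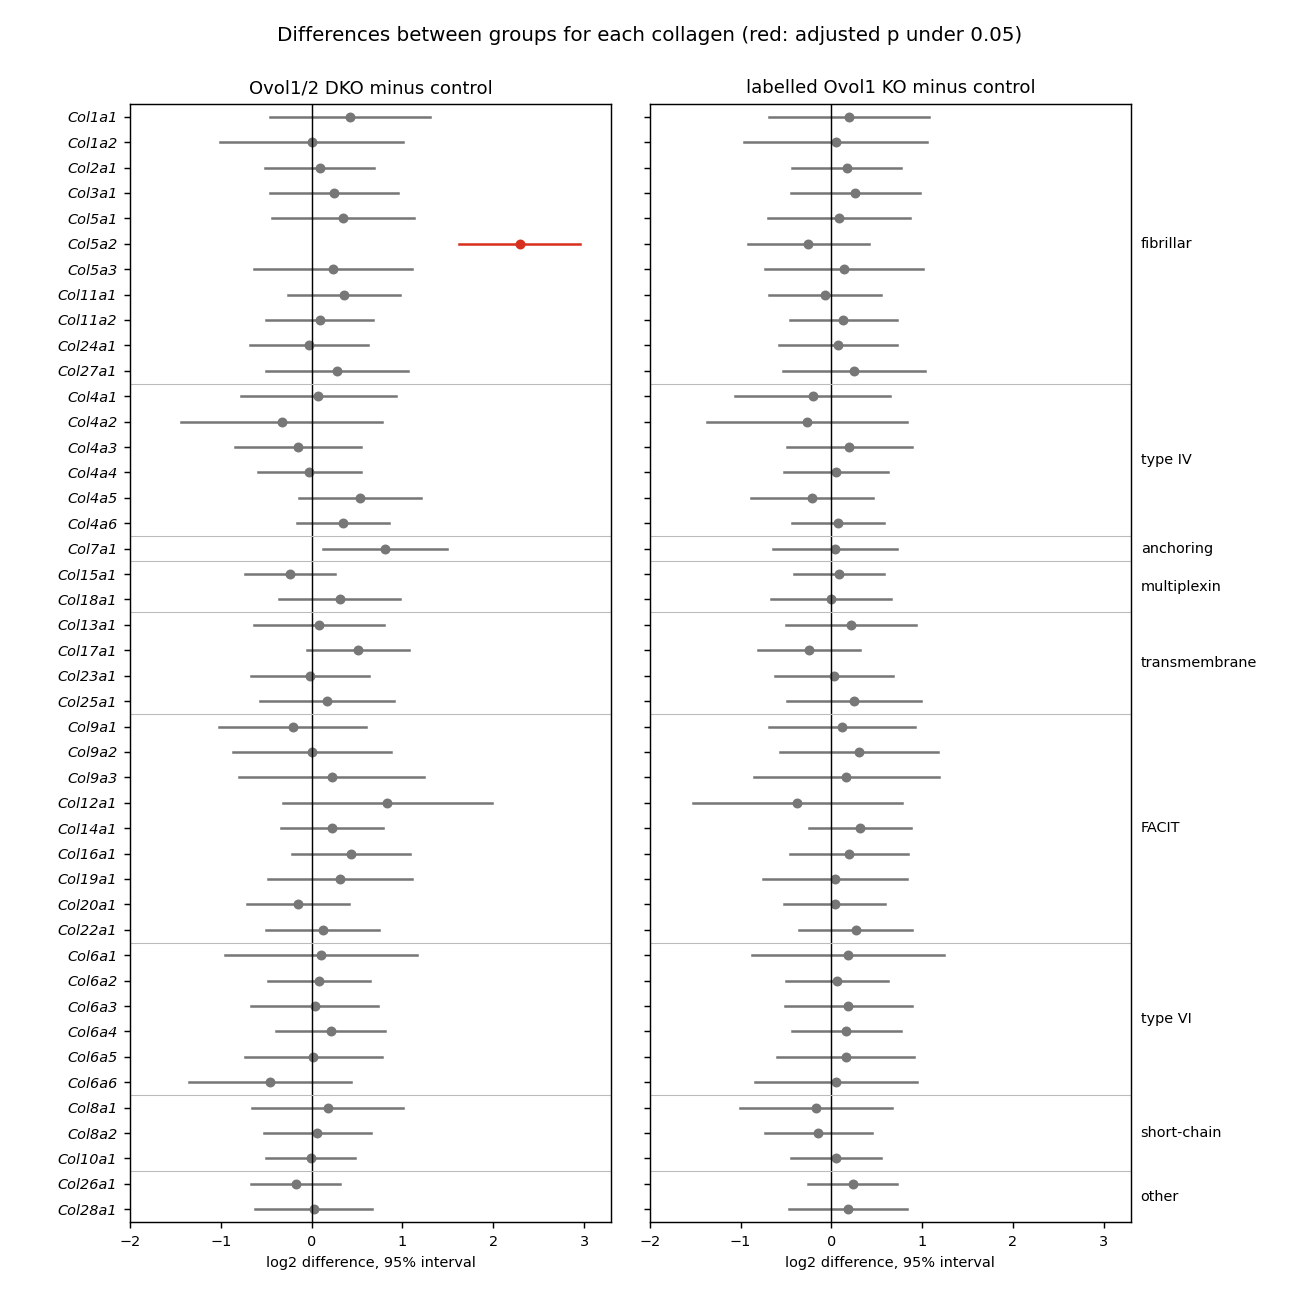
Difference of each collagen from control on the log2 scale, with its 95% interval from the limma model, for the Ovol1/2 DKO on the left and the arrays labelled Ovol1 KO on the right; red marks a limma adjusted p under 0.05. Col5a2 on the left, at 2.29, is the sole red point, and every interval on the right includes 0.

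The arrays labelled Ovol1 KO did not differ from control in any collagen by the limma test. None of the 44 collagens passed and none had an unadjusted p under 0.05, and 0% of all genes passed, with 153 of 19938 at an unadjusted p under 0.05. The median collagen difference was 0.09, with a range from -0.37 for Col12a1 to 0.32 for Col14a1. Both arrays lay above both controls for 2 collagens (Col14a1 and Col26a1) and below for 3 (Col5a2, Col4a5 and Col17a1), where 8.82% and 10.3% of all genes did so. The 95% interval stayed within 2-fold for 33 collagens and within 4-fold for all 44.

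Between the Ovol1/2 DKO and the arrays labelled Ovol1 KO, Col5a2 rose and no other collagen passed, against 3.15% of all genes (1.24% higher and 1.91% lower). The median collagen difference was -0.04. Both Ovol1/2 DKO arrays lay above both labelled Ovol1 KO arrays for 7 collagens, among them Col5a2, Col7a1, Col12a1, Col17a1 and Col4a5, and below for 2, Col15a1 and Col26a1, where 43.1% of all genes lay apart in either direction. With the replicate number as a block, 1022 genes passed in place of 628, and Col12a1 joined Col5a2.

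Most collagens were higher on replicate 2 than on replicate 1 in each group. Replicate 2 lay above replicate 1 for 41 of 44 collagens in control, for 42 under the Ovol1 KO label and for 40 in the Ovol1/2 DKO, and for 36 in all 3 groups. The same held for 45.4%, 46.8% and 45.8% of all genes. The median collagen was higher in replicate 2 by 0.30 in control, 0.63 under the Ovol1 KO label and 0.36 in the Ovol1/2 DKO, where the median gene differed by -0.05, -0.04 and -0.03. The widest gap was that of Col4a2 under the Ovol1 KO label, 1.35. All 3 replicate 1 arrays lay apart from all 3 replicate 2 arrays for 65.9% of collagens, against 24.4% of all genes and 32.9% of the probe sets with no gene symbol. The labels do not say what a replicate number stands for.

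**Figure D4:**
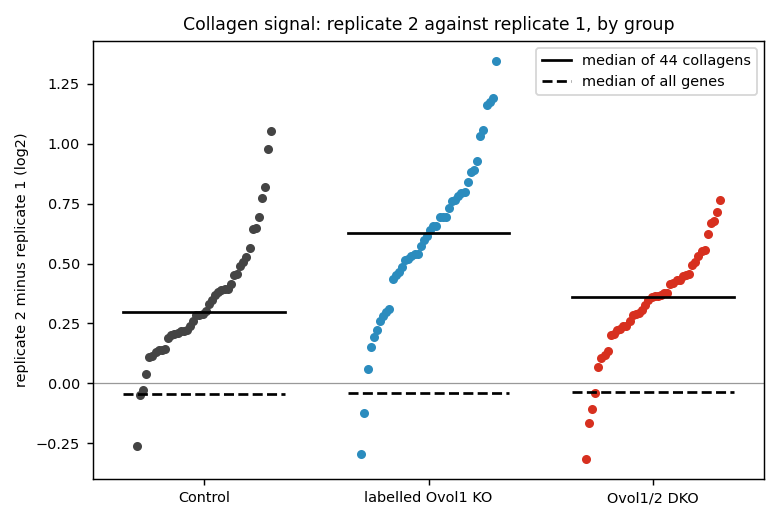
Replicate 2 minus replicate 1 for each of the 44 collagens in each group on the log2 scale, sorted, with solid lines at the collagen medians (0.30, 0.63 and 0.36) and dashed lines at the medians of all genes (-0.05, -0.04 and -0.03). Nearly all collagens lie above 0 in each group.

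Most markers of fibroblasts, the main makers of fibrillar collagen, moved in the same direction between replicates, as did those of some other cell types. Of 11 fibroblast markers other than collagens, replicate 2 was higher for 8 in control, 9 under the Ovol1 KO label and 10 in the Ovol1/2 DKO. The mean of these markers was 6.73 and 7.39 in control, 6.81 and 7.37 under the Ovol1 KO label and 7.03 and 7.46 in the Ovol1/2 DKO, and Lum, Fap and Mfap5 were near background. Dcn, a proteoglycan of dermal fibroblasts, read 7.25 and 8.40 in control and 7.35 and 8.30 in the Ovol1/2 DKO. Between the Ovol1/2 DKO and control, 1 of the 11 rose, Thy1 by 1.67, where 0.622% of all genes rose. None of the 11 fell, and their median difference was 0.07. Of 8 skeletal muscle markers, replicate 2 was higher for 7, 8 and 7 in the same order of groups, and of 10 keratinocyte markers for 1, 5 and 4. It was higher for 7, 7 and 4 of 8 leukocyte markers and for 6, 3 and 5 of 6 Schwann cell markers. Among 8 markers each, the counts were 4, 5 and 4 for endothelial, 5, 2 and 3 for melanocyte and 5, 5 and 5 for adipocyte markers. The part of these markers in the collagen pattern was not tested.

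The direction of many collagen differences was not the same within the 2 replicate numbers, which the labels do not pair across groups. Compared array by array within a number, the Ovol1/2 DKO was above control for 31 collagens in replicate 1 and for 28 in replicate 2, and 13 had opposite signs. Against the arrays labelled Ovol1 KO, it was above for 34 collagens in replicate 1 and for 13 in replicate 2, and 21 had opposite signs. The arrays labelled Ovol1 KO were above control for 22 collagens in replicate 1 and 37 in replicate 2, and 19 had opposite signs. Opposite signs were not counted over all genes. Col5a2 was higher in the Ovol1/2 DKO within both numbers, by 1.89 and 2.69 against control.

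Some of the genes that make collagen chains fit for a matrix rose in the Ovol1/2 DKO. Of 20 measured genes listed under hydroxylation and folding of the chains, 5 rose against control, 0 fell and 15 did not pass. Over all genes, 0.622% rose and 1.4% fell. The median difference was 0.91, beside 0.03 over all genes. Both Ovol1/2 DKO arrays lay above both control arrays for 17 of them, against 21.1% of all genes. The 5 included P4ha1, a catalytic subunit of prolyl 4-hydroxylase that gives the triple helix its heat stability. It read 8.99 and 8.76 in control, 8.48 and 8.41 under the Ovol1 KO label and 10.17 and 10.14 in the Ovol1/2 DKO, a difference of 1.29 (limma adjusted p 0.0294). Plod1, a lysyl hydroxylase that prepares chains for cross-linking, rose by 1.52 (limma adjusted p 0.0206). Fkbp14, a prolyl isomerase of the endoplasmic reticulum, rose by 1.55 (limma adjusted p 0.0208). Sparc, a collagen-binding glycoprotein, rose by 1.65 (limma adjusted p 0.0235). It is no hydroxylase, and it is counted again below among the glycoproteins that bind fibrils. P3h3, of the prolyl 3-hydroxylase family, rose by 1.67 at a limma adjusted p of 0.0466, which became 0.0509 with the replicate number as a block. Of the 17 alternatives that keep spread in more than 1 group, P3h3 passed in 5, P4ha1 and Plod1 in 12, and Fkbp14 and Sparc in 13.

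The collagen chaperone Serpinh1 was 0.98 higher and Crtap, a partner of prolyl 3-hydroxylase, 1.16 higher, and neither passed, although both did with the replicate number as a block. Both genes were picked after their values were seen. Without 1 array, the number of folding genes that rose against control fell to 0 when control replicate 2, Ovol1/2 DKO replicate 1 or Ovol1/2 DKO replicate 2 was absent, and to 3 without control replicate 1. It was 4 without either array labelled Ovol1 KO, P3h3 being lost. Without the 2 arrays that lacked Xist signal, the median difference of the 20 genes was 0.92. Against the arrays labelled Ovol1 KO, 6 of the 20 rose, where 1.24% of all genes did, adding Plod3, another lysyl hydroxylase, at a limma adjusted p of 0.0403, and this count was 0 without replicate 1 labelled Ovol1 KO, 1 without Ovol1/2 DKO replicate 1 and 0 without Ovol1/2 DKO replicate 2. Under the Ovol1 KO label, no gene of this or the other partner groups passed against control in the limma test, and 1 of the 20 had an unadjusted p under 0.05.

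Of 14 genes for trimming and cross-linking procollagen, 3 rose against control, 0 fell and 11 did not pass, where 0.622% of all genes rose and 1.4% fell, and the median difference was 0.40. Lox encodes lysyl oxidase, which starts the covalent cross-links of collagen and elastin. It read 6.96 and 7.58 in control, 6.59 and 7.53 under the Ovol1 KO label, and 11.28 and 11.76 in the Ovol1/2 DKO. The Ovol1/2 DKO arrays stood far above the rest, the difference was 4.25 (limma adjusted p 0.00755), and it passed in all 17 of those alternatives. Tll1, a protease of the family that removes procollagen ends, read 8.29 and 7.68 in control and 10.91 and 11.29 in the Ovol1/2 DKO and rose by 3.12 (limma adjusted p 0.0159). Tgm2, a transglutaminase that joins matrix proteins, read 6.21 and 6.42 in control and 8.51 and 10.02 in the Ovol1/2 DKO and rose by 2.94 (limma adjusted p 0.0364). Tgm2 passed in 9 of the 17 alternatives. Bmp1, which shares its cleavage site with Tll1, was 1.27 higher and did not pass. With the replicate number as a block, Bmp1 passed against the arrays labelled Ovol1 KO. Leaving out single arrays gave counts of 1 without control replicate 2 or Ovol1/2 DKO replicate 2 and 2 without control replicate 1 or Ovol1/2 DKO replicate 1. Without either array labelled Ovol1 KO the count stayed at 3, with Bmp1 in place of Tgm2 (limma adjusted p 0.0589 for Tgm2). Lox, Tll1 and Tgm2 also rose against the arrays labelled Ovol1 KO, where 1.24% of all genes rose. Tgm2 was lost there without replicate 1 or replicate 2 labelled Ovol1 KO or Ovol1/2 DKO replicate 2.

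None of 11 collagen receptors passed against control in the limma test, with 2 at an unadjusted p under 0.05 (2071 of 19938 over all genes), and the median difference was 0.03. Ddr2, a receptor kinase for fibrillar collagen, was 0.77 higher, and Itga1, the integrin chain that binds type IV collagen, was 1.41 higher, and neither passed. Of 15 proteoglycans and glycoproteins that bind fibrils, 2 rose, Tgfbi by 3.17 (limma adjusted p 0.0270) and Sparc, where 0.622% of all genes rose, and the median difference was 0.11. That count was 0 without control replicate 2 or Ovol1/2 DKO replicate 2, and 1 without control replicate 1 or Ovol1/2 DKO replicate 1. Of 22 basement membrane partners, none passed against control in the limma test, with 4 at an unadjusted p under 0.05 (2071 of 19938 over all genes), and the median difference was 0.31. Dst, a hemidesmosome linker, and Lamc1, a laminin chain, were higher by 0.88 and 0.84 against control without passing. Against the arrays labelled Ovol1 KO they were higher by 1.34 and 1.26 and passed at limma adjusted p of 0.0267 and 0.0313. They were the only 2 of the 22 that passed there, where 1.24% of all genes rose. Those 2 calls were lost without replicate 1 labelled Ovol1 KO, Ovol1/2 DKO replicate 1 or Ovol1/2 DKO replicate 2. That of Dst was also lost without replicate 2 labelled Ovol1 KO.

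**Figure D5:**
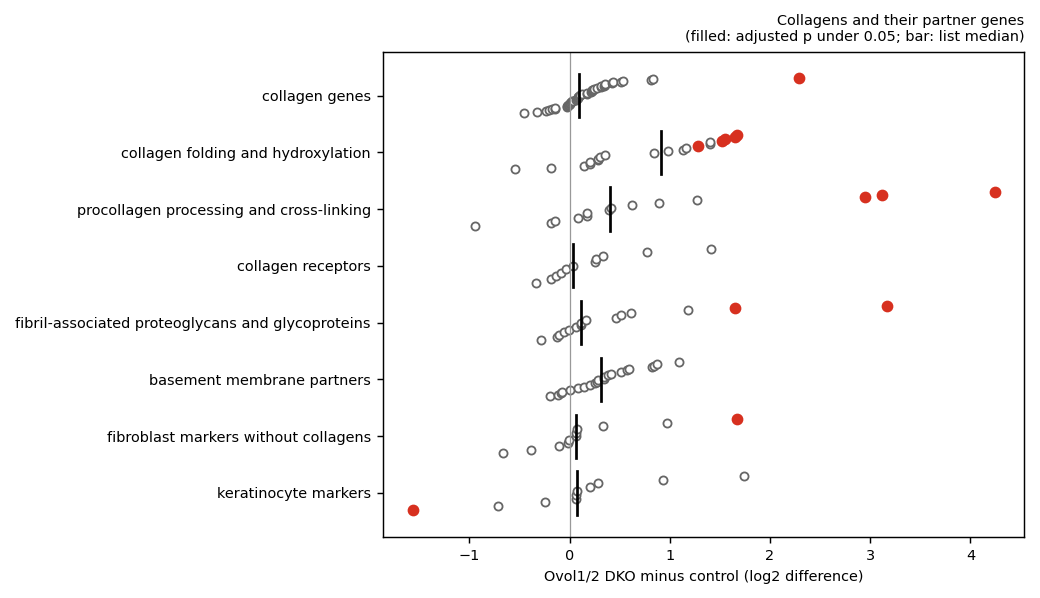
Ovol1/2 DKO minus control on the log2 scale for the collagens, 5 groups of partner genes and 2 marker groups, with one point a gene, filled red where the limma adjusted p was under 0.05, and a bar at the median of each group. The medians are 0.10 for collagens and 0.91 for folding and hydroxylation genes, and the filled points farthest to the right are Lox, Tgfbi, Tll1 and Tgm2.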

How the data were processed

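The authors deposited probe set intensity on a linear scale for 6 arrays, and Affymetrix Expression Console 1.1.1 and PLIER 2.0, a method that summarises probes, are the tools in the submitters' processing notes. For background correction and normalization, the sources used here give nothing. Per the labels' protocols, RNA was amplified with the Ambion WT expression kit and carried a biotin label. Median intensity ran from 103.3 to 109.8 per array.

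Of 35556 probe sets, 21789 had 1 gene symbol, 1621 had several and were not named, and 12146 were unnamed. Symbols were updated by Entrez identifier, and 83 identifiers had no match. For 999 genes with several probe sets the highest mean was used, which left 19938 genes. Values were taken as log2(intensity + 16). One model over all 6 arrays (limma 3.58.1, R 4.3.3, lmFit and eBayes) had 3 residual and 3.68 prior degrees of freedom. An exact two-sided test of 2 arrays against 2 cannot go below p = 0.333. The fit was tested on simulated data.

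Collagens, partner lists, alternatives and the rule for named genes were chosen with earlier results of these data known. Per-array values are given for collagens that passed or lay apart by at least 1, and for 9 well-known skin collagens. Up to 4 passing genes per partner list are named, or the 2 with the smallest p. All other collagens, partners and markers given by value, with per-array values for Col4a5, Col8a1 and Dcn, were chosen after their values were seen.

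Deviations from group means of arrays with the same replicate number correlated over all genes at 0.261 between control and labelled Ovol1 KO. The correlation was 0.490 for the control arrays with the Ovol1/2 DKO arrays, and 0.194 for the last pair of groups. Over the collagens alone, the correlations were 0.643, 0.136 and 0.155 in the same order of pairs. The labels do not tie a number to a day or litter, so the fit without a block was kept. The blocked fit is given where it changes a call or moves a count by more than 1.5 times. Alternatives were that block, offsets of 1 and 64, quantile normalization, centring on the median, each array left out in turn, a fit on the compared groups alone, no dim genes, the most variable probe set per gene, all probe sets, robust variance and an intensity trend. Leaving out the 2 arrays without Xist signal was added after the data were seen. RefSeq promoter windows are from GRCm38.p6, and RefSeq gene order was used for neighbours.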

Additional observations from a re-analysis of the deposited data

How the results depend on the processing

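For Ovol1/2 DKO against control, 403 genes passed, with 99 to 455 when single arrays were left out, 155 with an offset of 64, 91 when all probe sets were tested and 1395 without the 2 arrays lacking Xist signal. For Ovol1/2 DKO against the arrays labelled Ovol1 KO, 628 passed, with 135 to 831 when single arrays were left out, 1022 with the replicate block, 311 with an offset of 64, 206 over all probe sets and 1508 without the 2 arrays lacking Xist signal. For the labelled Ovol1 KO against control, 0 passed, with 0 to 3 when single arrays were left out and 20 without the 2 arrays lacking Xist signal. Collagens called against control were 1, with 0 to 1 over the left-out arrays, 0 with an offset of 64 and 0 over all probe sets. Collagens called against the labelled Ovol1 KO were 1, with 0 to 1 over the left-out arrays and 2 with the replicate block. Among the collagens and the 5 partner groups, the replicate block changed the calls of Col12a1, P3h3, Serpinh1, Crtap and Bmp1 and no other. The cause of these shifts was not tested, and with all probe sets the estimates of spread changed as well as the number of rows. Without 1 array, the lone array of its group is assumed to vary like the other groups. Without the 2 arrays lacking Xist signal, control and the labelled Ovol1 KO have 1 array each and the spread is that of the Ovol1/2 DKO pair, so those counts are no test of the groups.

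Of 33 differences of the 11 named collagens, 16 kept their sign in all alternatives run and 17 changed it in at least 1, none of them a difference that passed. Left-out arrays gave, for the labelled Ovol1 KO against control, -0.95 to 0.21 for Col12a1, -0.26 to 0.25 for Col18a1, -0.19 to 0.58 for Col1a1, -0.44 to 0.53 for Col1a2, -0.083 to 0.61 for Col3a1, -0.73 to 0.32 for Col4a1, -0.94 to 0.40 for Col4a2, -0.34 to 0.50 for Col5a1 and -0.34 to 0.42 for Col7a1. For Ovol1/2 DKO against the labelled Ovol1 KO they gave -0.16 to 0.61 for Col1a1, -0.51 to 0.42 for Col1a2, -0.36 to 0.33 for Col3a1, -0.25 to 0.81 for Col4a1, -0.73 to 0.61 for Col4a2 and -0.16 to 0.68 for Col5a1. For Ovol1/2 DKO against control they gave -0.49 to 0.49 for Col1a2 and -0.11 to 0.26 for Col4a1. Quantile normalization gave 0.043 for Col18a1 (labelled Ovol1 KO against control) and -0.056 for Col1a2 (Ovol1/2 DKO against control). Median centring gave -0.0089 for Col1a2 (Ovol1/2 DKO against control) and 0.0067 for Col3a1 (Ovol1/2 DKO against labelled Ovol1 KO), and an offset of 64 gave -0.011 for Col1a2 (Ovol1/2 DKO against control). Without the 2 arrays lacking Xist signal, the labelled Ovol1 KO differed from control by 0.12 for Col18a1, 0.25 for Col4a1 and 0.12 for Col4a2. There, Ovol1/2 DKO differed from the labelled Ovol1 KO by -0.16 for Col1a1, -0.25 for Col4a1 and -0.16 for Col5a1, and from control by -0.49 for Col1a2. Precision is limited by having 2 arrays in a group.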
